A study of Danio rerio with 9 samples.

Results

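The Sox and forkhead genes encode a pair of transcription factor families, and 42 of them, 18 Sox and 24 forkhead, were measured among the 8793 genes of a comparison between zebrafish leukaemia models. Members were taken by name, as probe sets with 1 gene symbol in the platform annotation that begins with sox or fox and a number. Where a gene had several probe sets, the brightest on average over the 9 arrays was taken, so that the 63 probe sets of these genes gave 42 values per array. The samples were green fluorescent T-lymphoblasts sorted from the bodies of fish in end-stage disease, with 1 array each for 6 hMYC-ER and 3 hlk samples. The name hMYC-ER stands for human MYC joined to an oestrogen receptor domain, and hlk is known as a line that inherits T cell malignancy. Sorted GFP+ cells and the final stage of disease are common to both groups. The promoter of the transgene, any inducing treatment, the age of the fish, and whether each array came from a separate fish are not given in the labels. P-values therefore measure only how these samples spread, and that spread may be technical. Arrays carry the sample numbers of the labels, where hMYC-ER has 1 to 6 and hlk has 7 to 9.

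Sox proteins bind DNA through an HMG box, which bends the helix, and forkhead proteins bind through the winged-helix domain that gave them their name. Within each family the members are grouped by sequence, and many groups mark a progenitor or a tissue, such as SoxB1 in neural and pluripotent cells, SoxE in the neural crest and FoxA in the endoderm. Some have roles in lymphocytes. In mouse, Sox4 is needed by early B and T cell progenitors, Foxp1 by B cell precursors and by resting T cells, and FoxO factors link growth factor signals to survival and quiescence.

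Levels are given as log2 signal, after the arrays were brought to a common distribution, with values below a signal of 16 set to the floor of 4. A difference is the hMYC-ER mean minus the hlk mean, and understates the change of genes near the floor. Levels of different genes are not compared as amounts of RNA, because probe sets differ in affinity. A low signal, a share of genes above a level or a sum of signals carries the same limit. The median deposited signal per array ran from 88.9 to 110.3, and the number of arrays limits the precision. One library stood apart. On hlk array 7 the gapdhs control probe sets gave a 3' to 5' signal ratio of 50.8, against 2.20 to 4.50 on the other 8 arrays, and values without it are given beside the members and lists whose calls change. In these bulk samples, fewer cells of a type and less RNA per cell cannot be told apart.

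The labelled cell type was checked against marker lists. Of 10 measured B cell genes, 10 were higher in hMYC-ER (9 without array 7, mhc2dcb not passing), with a median difference of 4.78. Among them were the light chain gene igl1c1 (7.72, adjusted p 1.09e-07), the lineage factor gene pax5 (6.78) and the adaptor gene blnk (6.55). Of 9 measured T cell genes, 5 were higher in hlk. Among the 5 were the factor genes ets1 (-4.28), runx3 (-3.52) and gata3 (-4.69). The T cell receptor gene trac also passed, at 7.02 in hMYC-ER and 11.61 in hlk. The last, rag1 (-4.12), lost its call when any 1 of the 8 arrays other than array 7 was left out. The other 4 did not pass, and 3 of them, tox (0.76), rag2 (1.25) and cd28 (0.28), leaned towards hMYC-ER. The summed signal of the B cell genes was 57268 to 71272 on the hMYC-ER arrays and 5419 to 8392 on the hlk arrays, and that of the T cell genes was 4228 to 6557 and 29757 to 37847. In hlk, pax5 (4.31) and blnk (4.50) lay near the floor. The gene myca, a zebrafish counterpart of MYC, was at 8.80 in hMYC-ER and 13.10 in hlk (adjusted p 3.88e-06). The label T-lymphoblast is therefore used for hMYC-ER only as the sort name. The part of these lineage genes in the Sox and forkhead differences was not tested.

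A mean of at least 8 (a signal of 256) in either model, called bright here, was reached by 11 of 42 members. That is 26.2% of the members, against 50.6% of all genes, and the other members are called dim. The bright Sox genes were sox2, sox4a, sox11a and sox19a. The bright forkhead genes were foxj3, foxk1, foxk2a, foxk2b, foxm1, foxo3b and foxp1a. On any 1 array, 12 to 17 members lay at the floor, and 29 members were at the floor on at least 1 array. Each array, of either model, had 8 to 10 members at 8 or more, and 45.5% to 47.3% of all genes.

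**Figure D1:**
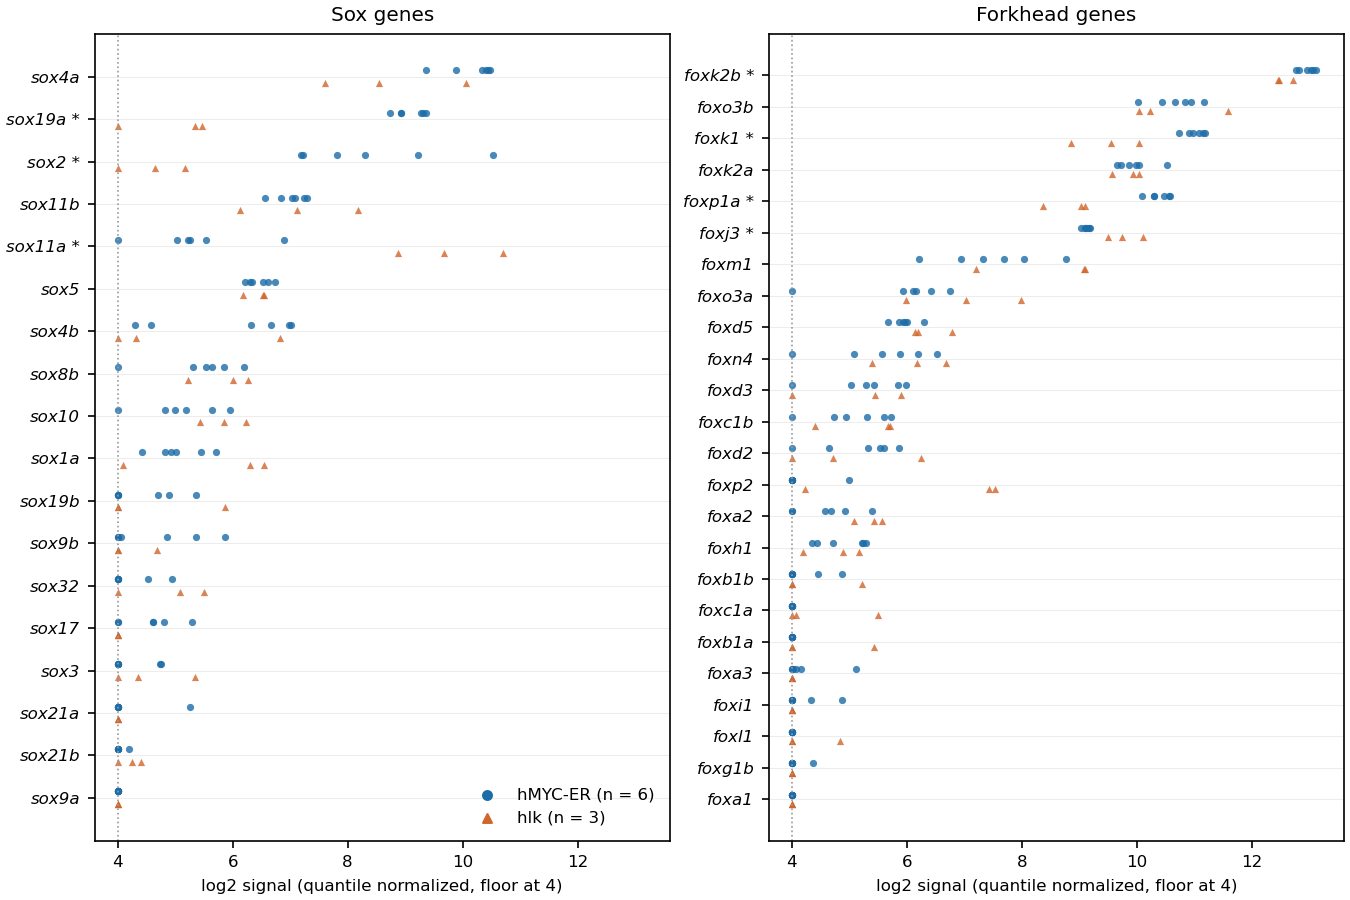
Log2 signal (x axis, floor at 4, dotted line) of each of 18 Sox and 24 forkhead genes on 6 hMYC-ER arrays (circles) and 3 hlk arrays (triangles). Genes are ordered by their mean, and an asterisk marks the 7 genes that passed the test; most of the others crowd towards the floor in both models.

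Between the models, 7 of 42 members passed limma's test at an adjusted p of 0.05, 5 with more signal in hMYC-ER and 2 with more in hlk, and 35 did not pass. Over all genes 22.0% passed, 10.4% towards hMYC-ER and 11.6% towards hlk. The members' shares of 11.9% and 4.76% are near or below that background and are no result about the families as such. This background was not matched for level. Of the members 69.0% were at the floor on at least 1 array, against 33.1% of all genes. The groups did not overlap for the same 7 members, 5 with hMYC-ER above hlk and 2 below, against 10.7% and 12.5% of all genes (23.1% in all). The median difference of the 42 members was -0.06, against -0.08 over all genes. Without hlk array 7 there were 5 towards hMYC-ER and 5 towards hlk, where foxp2, sox1a, sox32 and sox4a passed in addition and foxk2b did not.

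**Figure D2:**
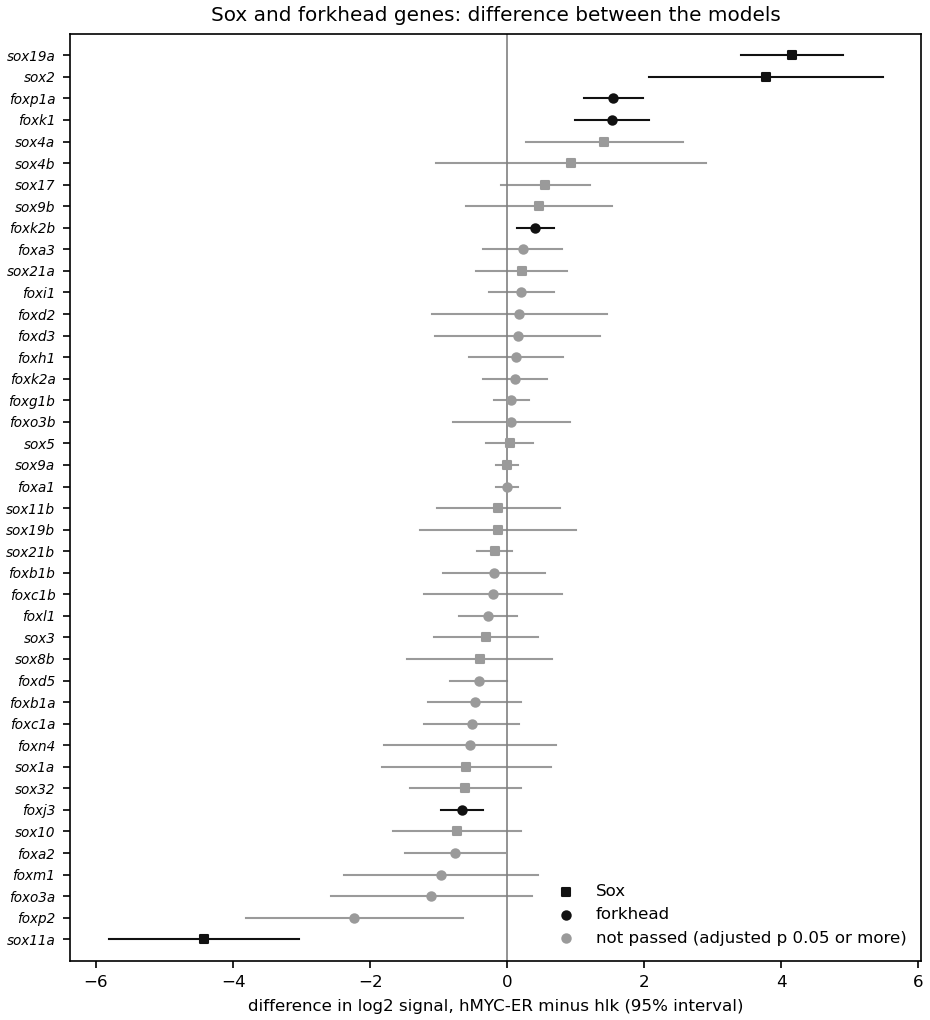
Difference in log2 signal, hMYC-ER minus hlk, with its 95% interval, for all 42 genes, with Sox genes as squares and forkhead genes as circles. The 7 genes in black passed the test, and run from -4.43 for sox11a to 4.16 for sox19a.

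The largest differences lay in the Sox family, and went both ways. Among the SoxB1 genes, the neural and embryonic progenitor factor genes sox19a and sox2 were higher in hMYC-ER, while the SoxC gene sox11a was higher in hlk. Each differed by more than 10-fold, and each has a close relative in the same group that did not pass.

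The gene sox19a, a SoxB1 factor that zebrafish embryos use in the early nervous system, had log2 signals of 8.93, 9.32, 8.92, 8.74, 9.28 and 9.36 on the 6 hMYC-ER arrays, and of 4.00, 5.47 and 5.34 on the 3 hlk arrays. The groups were far apart, and the hMYC-ER arrays lay within 1 log2 unit of each other. Means were 9.09 ± 0.26 (SD, n = 6) and 4.94 ± 0.81 (SD, n = 3), which is a 17.8-fold difference (4.16, SE 0.32, adjusted p 6.99e-05). With array 7, at the floor, left out, the difference was 3.71 (adjusted p 2.82e-05). Its paralogue sox19b, in zebrafish a maternal factor of the early embryo, was at the floor on 5 of 9 arrays and differed by -0.13 (adjusted p 0.89, 95% interval -1.27 to 1.01).

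The stem and neural progenitor factor gene sox2 had log2 signals of 10.53, 7.19, 7.22, 7.82, 8.31 and 9.23 in hMYC-ER and of 4.65, 4.00 and 5.17 in hlk. No hMYC-ER array overlapped the hlk range, but the hMYC-ER arrays themselves were spread over more than 3 log2 units, with array 1 highest. The means of 8.38 ± 1.30 (SD, n = 6) and 4.61 ± 0.59 (SD, n = 3) differed by 3.78 (SE 0.74, adjusted p 0.00806), or 13.7-fold. The call ended with a floor at a signal of 64 (2.38, adjusted p 0.0682). Its 3 probe sets did not all move. Probe set DrAffx.2.82.S1 read 7.44 ± 0.76 (SD, n = 6) on the hMYC-ER arrays and was at the floor on all 3 hlk arrays, so that it was at least 10.9-fold higher (adjusted p 0.00104 over all probe sets, of which 18.9% passed). Its partner DrAffx.2.82.A1, whose name differs only in the letter, differed by -0.34 (adjusted p 0.57), with 6.11 ± 0.43 (SD, n = 6) against 6.45 ± 0.72 (SD, n = 3). The letters S and A give the recorded orientation, so that this pair may read opposite strands and DrAffx.2.82.A1 may not detect sox2 RNA. The brightest sox2 probe set, used for the values above, is recorded as A as well. That letter is also recorded for the probe sets used for sox4a, sox5 and sox19b, among others. Which strand each probe set reads was not tested.

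The SoxC gene sox11a, known in neural precursors, had log2 signals of 6.89, 5.03, 5.22, 5.25, 4.00 and 5.54 in hMYC-ER and of 8.87, 10.70 and 9.67 in hlk. Every hlk array lay above every hMYC-ER array. Means were 5.32 ± 0.93 (SD, n = 6) and 9.75 ± 0.92 (SD, n = 3), so that hlk was 21.5-fold higher (-4.43, SE 0.61, adjusted p 0.00142). All 3 of its probe sets passed in this direction, at -4.43, -5.47 (adjusted p 1.69e-04) and -2.06 (adjusted p 0.0035). On hMYC-ER array 1, which also had the highest sox2 signal, sox11a was the highest of that model. The 3' to 5' control ratio of array 1, 4.50, was the highest of that model too, and its part in these signals was not tested.

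**Figure D3:**
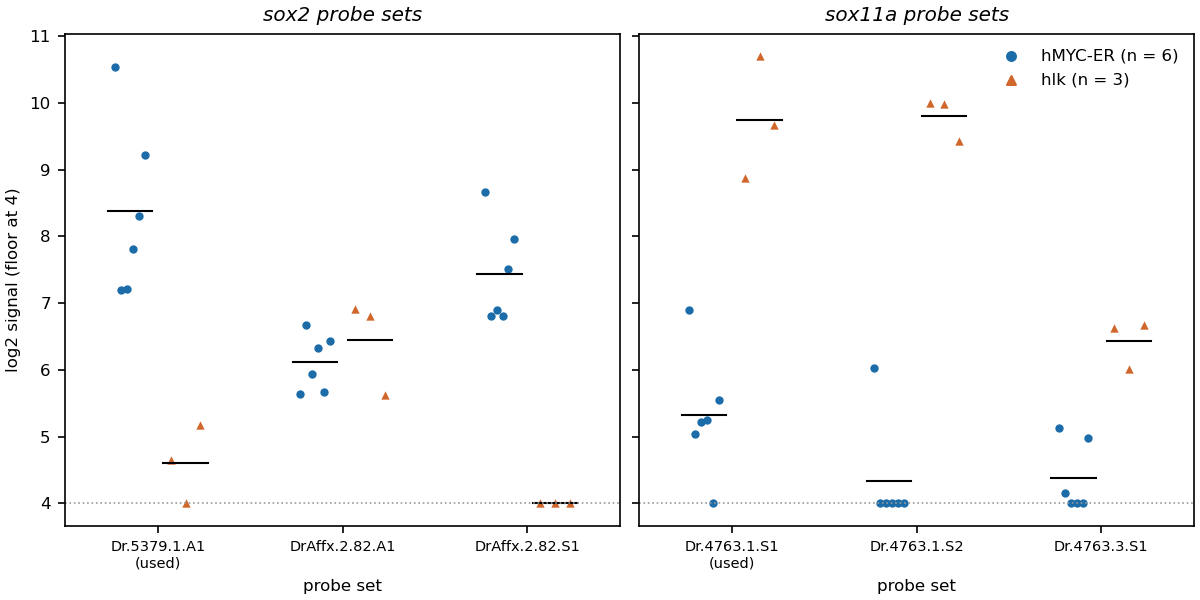
Log2 signal (y axis, floor at 4, dotted line) of the 3 probe sets of sox2 (left) and of sox11a (right) on each hMYC-ER array (circles) and hlk array (triangles), with group means as bars. For sox2, DrAffx.2.82.A1 overlapped between the models while the other 2 did not, and for sox11a all 3 probe sets were higher in hlk.

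The paralogue sox11b had means of 7.01 ± 0.27 (SD, n = 6) and 7.14 ± 1.03 (SD, n = 3). It differed by -0.13 and did not pass (adjusted p 0.858), with a 95% interval of -1.03 to 0.77. Among the 9 pairs of members whose names differ only in a final a or b, the change of the first minus that of the second was tested by a two-sided exact permutation over the 84 splits of 9 arrays. It was -4.30 for sox11a against sox11b and 4.29 for sox19a against sox19b. Both pairs reached the smallest exact p the design allows, 0.0119, which became 0.0536 when adjusted over the 9 pairs, and so did not pass. For foxk2a against foxk2b the value was -0.30 (exact p 0.131), and for foxo3a against foxo3b -1.17 (exact p 0.0595). The other 5 pairs had an exact p of 0.31 to 0.679.

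The gene sox4a is the zebrafish counterpart of a lymphoid progenitor factor, and whether it passed depended on array 7 and on the fit. Log2 signals were 10.48, 10.41, 9.88, 10.34, 9.37 and 10.44 in hMYC-ER and 10.06, 8.54 and 7.60 in hlk. Array 7 lay within the hMYC-ER range, whereas arrays 8 and 9 lay below it. The difference of 1.42 (SE 0.50) did not pass (adjusted p 0.0782), and without array 7 it was 2.06 (adjusted p 0.00739). Of 18 alternative limma fits, the 1 without array 7 included, sox4a passed in 4. The paralogue sox4b was dim and variable and differed by 0.92 (adjusted p 0.501), with means of 5.97 ± 1.22 (SD, n = 6) and 5.05 ± 1.54 (SD, n = 3).

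The remaining Sox genes were dim in both models. The SoxE genes sox8b, sox9a, sox9b and sox10, which direct neural crest and cartilage, had group means of 4.00 to 5.83, and sox9a lay at the floor on all 9 arrays. Their differences ran from -0.73 for sox10 to 0.46 for sox9b, and 0 of 4 passed by limma (0 also at an unadjusted p under 0.05). The SoxF genes, sox17 of endothelium and endoderm and sox32, which specifies endoderm in zebrafish, differed by 0.56 and -0.61 (adjusted p 0.205 and 0.265), and without array 7 sox32 was -1.03 (adjusted p 0.041). The SoxD gene sox5, a cofactor of SoxE in cartilage, was above the floor on all arrays, with means of 6.45 and 6.42 and an interval (95%) of the difference of -0.31 to 0.38. Of the other SoxB genes, sox3, sox21a and sox21b had means of 4.00 to 4.56, and sox1a differed by -0.60 (adjusted p 0.485), which was -1.41 without array 7 (adjusted p 0.0227).

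Marker genes of the tissues these factors are known from were read on the same arrays. Of 19 measured neural genes 1 was higher in hMYC-ER, the proneural factor gene neurog1 at 8.70 against 4.59, and 3 were higher in hlk, among them snap25a (4.04 and 5.42) and isl2a (4.15 and 4.96), a call lost without array 7 or 8. The other 15 did not pass, of which neurod1 did without array 7 (-1.68, adjusted p 0.00514). This share of 21.1% passing is near the 22.0% of all genes and is no result about the neural list. The neural genes elavl4 and olig2 were at 4.00 and gfap at 4.87 in hMYC-ER. Of 17 neural crest and pigment genes 1 passed, the melanocyte regulator mitfa, a known target of Sox10, with means of 11.46 ± 0.66 (SD, n = 6) and 4.61 ± 1.06 (SD, n = 3) (adjusted p 6.22e-05). The pigment genes tyr (4.01) and dct (5.60), the stem cell factor receptor gene kita (4.28) and sox10 (5.10) had these means in hMYC-ER, and 0 of the 4 passed (0 also at an unadjusted p under 0.05). Of all 17 neural crest and pigment genes, 5 had an unadjusted limma p under 0.05, mitfa among them. The others were mitfb (-1.26), mbpa (-1.72) and tfap2a (-0.85) towards hlk and ednrba (0.62) towards hMYC-ER. The share of this list that passed, 5.88%, lay below the 22.0% of all genes. The summed signal of the neural genes was 815 to 1314 in hMYC-ER and 1037 to 1494 in hlk.

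In the forkhead family the changes were smaller, and the genes that passed were bright in both models. The genes foxp1a, foxk1 and foxk2b were higher in hMYC-ER, and foxj3 was higher in hlk. No forkhead member that passed differed by more than 3-fold. Each of them was read by 1 probe set only, recorded as A, and the strand it reads was not tested.

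The gene foxp1a, whose mouse counterpart is needed for early B cell development, had log2 signals of 10.56, 10.30, 10.30, 10.09, 10.58 and 10.47 in hMYC-ER and of 9.04, 9.10 and 8.37 in hlk. All 6 hMYC-ER arrays lay above the 3 hlk arrays. Group means of 10.38 ± 0.19 (SD, n = 6) and 8.84 ± 0.41 (SD, n = 3) differed by 1.55 (SE 0.19, adjusted p 7.82e-04), or 2.92-fold. The name of its only probe set begins with the same number as that of a probe set annotated to sox3. That sox3 probe set lay near the floor, at 4.30 in hMYC-ER and 4.00 in hlk. The foxp1a values therefore rest on the platform annotation, and which gene the probe set reads was not tested. In the same arrays the 10 B cell genes were higher, as given above, and their relation to foxp1a was not tested.

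Its relative foxp2, best known from brain circuits for vocal learning, went the other way without passing. It was at the floor on 5 hMYC-ER arrays and at 5.00 on array 2, and read 4.24, 7.53 and 7.43 on the hlk arrays. Array 7 fell inside the hMYC-ER range. The difference was -2.23 (SE 0.69, adjusted p 0.0513), and -3.34 without array 7 (adjusted p 2.65e-04).

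FoxK factors repress autophagy genes and promote aerobic glycolysis in mammalian cells. All 3 measured genes of this group were bright. For foxk1 the log2 signals were 11.19, 11.16, 11.08, 10.73, 10.91 and 10.98 in hMYC-ER and 8.86, 10.04 and 9.56 in hlk, with no overlap. The means of 11.01 ± 0.17 (SD, n = 6) and 9.49 ± 0.59 (SD, n = 3) differed by 1.52 (SE 0.24, adjusted p 0.0026), and by 1.21 without array 7 (adjusted p 0.00267). For foxk2b they were 13.04, 12.96, 12.77, 12.82, 13.07 and 13.12 against 12.47, 12.72 and 12.45. These groups lay close to each other without overlap, and their difference of 0.41 (SE 0.12, adjusted p 0.0371), or 1.33-fold, did not pass when any 1 of arrays 1, 2, 5, 6, 7 and 9 was left out (adjusted p up to 0.104). The gene foxk2a, at 9.96 ± 0.31 (SD, n = 6) and 9.85 ± 0.25 (SD, n = 3), differed by 0.11 (95% interval -0.36 to 0.58, adjusted p 0.749).

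The gene foxj3, in mouse a regulator in muscle and testis, was nearly constant in hMYC-ER, at 9.13, 9.19, 9.10, 9.02, 9.17 and 9.11, and read 9.50, 9.74 and 10.11 in hlk. Every hlk value was above every hMYC-ER value. The difference was -0.66 (SE 0.13, adjusted p 0.00845), 1.58-fold higher in hlk, and -0.80 without array 7 (adjusted p 0.00261).

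The FoxO gene foxo3b, which in other vertebrates promotes survival under stress or cell death, had a median of 10.75 (10.02 to 11.17) in hMYC-ER and values of 10.04, 11.59 and 10.23 in hlk. The groups overlapped, and the difference was 0.06 (SE 0.37, adjusted p 0.936, 95% interval -0.80 to 0.92). Its other probe set lay near the floor. The paralogue foxo3a differed by -1.11 without passing (adjusted p 0.266), with means of 5.89 ± 0.97 (SD, n = 6) and 7.00 ± 1.00 (SD, n = 3).

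FoxO proteins are controlled mainly by kinases that keep them out of the nucleus, and their known targets include genes of cell death, stress defence and lymphocyte homing. Of 22 measured FoxO kinases and regulators, 5 passed, 3 with more signal in hMYC-ER and 2 with more in hlk, with a median difference of 0.04. This share of 22.7% is near the 22.0% of all genes and is no result about the list. The kinase gene sgk1, whose product phosphorylates FoxO3 in mammals, read 10.14, 10.76, 10.82, 9.53, 10.06 and 11.20 in hMYC-ER and 4.76, 6.60 and 4.99 in hlk. The groups did not overlap, and differed by 4.97 (SE 0.49, adjusted p 2.75e-04). The 14-3-3 protein gene ywhag2 was higher in hMYC-ER (1.60, adjusted p 0.00383), whereas its relative ywhabl (-0.72, adjusted p 0.0121) and the deubiquitinase gene usp7 (-0.58, adjusted p 0.00589) were higher in hlk. Without array 7 the counts were 2 and 4, with csnk1a1 and ptena passing towards hlk and pdpk1a no longer passing.

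Of 30 measured FoxO target genes, 10 passed, 8 with more signal in hMYC-ER and 2 with more in hlk, against the 10.4% and 11.6% of all genes. The list median was -0.19. The insulin receptor substrate gene irs2a read 9.94, 10.74, 10.47, 9.14, 10.17 and 9.71 in hMYC-ER and 5.61, 6.33 and 5.70 in hlk. Again the groups did not overlap (4.15, SE 0.35, adjusted p 1.06e-04). The TOR inhibitor gene ddit4 (5.31, adjusted p 0.00143), the translation repressor gene eif4ebp1 (1.75, adjusted p 4.74e-04) and the catalase gene cat (1.17, adjusted p 0.0017) were also higher. In the other direction lay the recombinase gene rag1 (-4.12, adjusted p 0.0474), which failed the test when any 1 of the 8 arrays other than array 7 was left out. Without array 7 it differed by -5.96 (adjusted p 0.00137), and the list counts were 8 and 4, with fbxo32, insrb, s1pr1 and trim63a passing and pik3ip1 and sesn3 no longer doing so.

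The gene foxm1 drives genes of the G2 and M phases of the cell cycle. It read 7.70, 6.21, 8.76, 6.93, 8.04 and 7.32 in hMYC-ER and 9.09, 7.20 and 9.10 in hlk. The models overlapped, and the spread within each was wide. The difference of -0.97 (SE 0.62) did not pass (adjusted p 0.316). Of 27 measured genes of the FoxM1 target list 4 had an unadjusted p under 0.05. After adjustment 1 passed by limma, a share of 3.7% against 22.0% of all genes. It was the MuvB complex gene lin9, with more signal in hlk (-0.77, adjusted p 0.0351). The call was lost when any 1 of 6 arrays was left out, array 7 among them. On this list lin9, lin37 and lin54 of the MuvB complex and mybl2b are known to act with FoxM1, and not only as targets. The list was not read without them.

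Across arrays the median of the 27 listed genes, the MuvB genes and mybl2b included, rose and fell with foxm1. Whether other cell cycle genes would do the same was not tested. The median log2 signal of the 27 listed genes correlated with foxm1 over 9 arrays. Pearson's r was 0.929 (exact permutation p 5e-04, adjusted p 0.001 over the 2 relations computed). Spearman's rho was 0.95 (exact permutation p 4e-04, adjusted p 7e-04). Within the 6 hMYC-ER arrays r was 0.988 and rho was 1.0 (exact permutation p 0.0028 for each). Without arrays 2 and 9, the farthest from the median of foxm1, r was 0.909 (exact permutation p 0.0044), and without array 7 it was 0.917 (exact permutation p 0.0017). The second relation, foxo3b against the median of its targets, was read within hMYC-ER, because the target medians of the 2 models did not overlap, and no r over both models is given for it. There r was -0.295 (exact permutation p 0.561) and rho was -0.143 (exact permutation p 0.803) over 6 arrays.

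**Figure D4:**
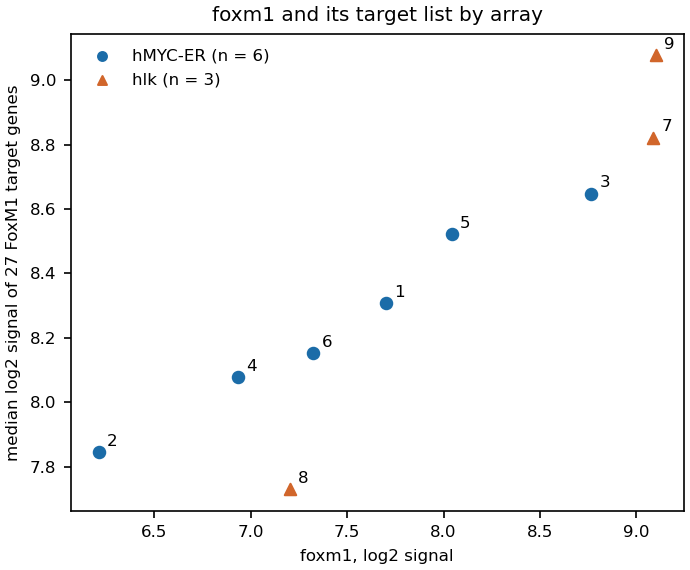
Log2 signal of foxm1 (x axis) against the median log2 signal of the 27 genes of the FoxM1 target list (y axis). There is 1 point per array with its number, for hMYC-ER (circles) and hlk (triangles). Arrays 2 and 8 lie lowest on the y axis and arrays 7 and 9 highest, with both models along the same rise.

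Partner factors were followed as well. Sox proteins act with POU factors and are antagonists or partners of beta-catenin and its corepressors. Of 20 measured genes of that list, 4 passed, 2 in each direction, with a median of -0.05. The share of 20% lies near the 22.0% of all genes, so that the count says nothing particular of Sox partners. The beta-catenin gene ctnnb2 read 10.20, 9.66, 9.94, 9.73, 10.08 and 9.66 in hMYC-ER and 11.92, 11.89 and 12.19 in hlk. Each hlk array was above each hMYC-ER array (-2.12, SE 0.16, adjusted p 5.08e-05). The other beta-catenin gene, ctnnb1, differed by -0.23 (adjusted p 0.243). The gene pou3f3b, of a class of POU factors that partner Sox proteins in neural cells, read 4.00, 4.00, 4.43, 5.52, 4.32 and 4.00 against 8.36, 6.12 and 9.51 (-3.62, adjusted p 0.00655), and did not pass with a floor at a signal of 64 (adjusted p 0.0683). The corepressor genes ctbp2a (3.15, adjusted p 5.12e-04) and ctbp1 (0.71, adjusted p 0.00122) were higher in hMYC-ER. Without array 7 the counts were 2 and 4, with pou4f2 and tle2a passing towards hlk.

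Among 19 measured partners and corepressors of forkhead proteins, 11 passed, 5 with more signal in hMYC-ER and 6 with more in hlk, with a median of -0.26. The share was 57.9%, against 22.0% of all genes, and was not tested as such. The T lineage factor gene runx3 (-3.52, adjusted p 2.79e-04) was higher in hlk and is also on the T cell list, as is gata3 (-4.69, adjusted p 0.00133). The other genes that passed are not on the T cell list. The TGF-beta effector gene smad3a (2.88, adjusted p 9.67e-04) was higher in hMYC-ER, as were ctbp1 and ctbp2a, which belong to this list too. Leaving out array 7 gave 6 and 8, with smad3b, mta2 and hdac1 added.

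**Figure D5:**
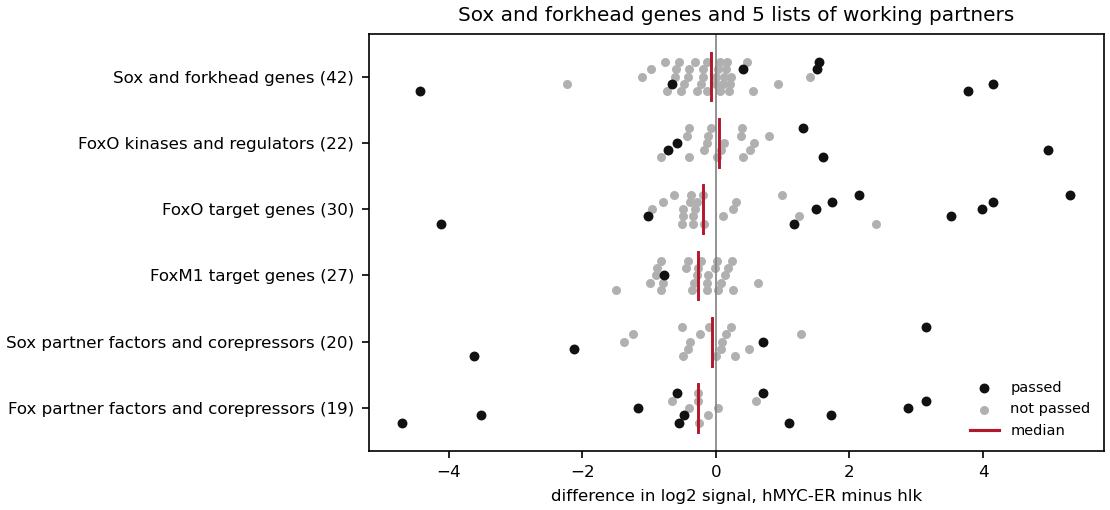
Difference in log2 signal, hMYC-ER minus hlk (x axis), for the 42 Sox and forkhead genes and for 5 lists of their regulators, targets and partners, with the number of genes in brackets. Black points passed the test, grey points did not, and the red bar is the median, which lies between -0.27 and 0.04 in all 6 rows.

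The other forkhead genes were dim, and 0 of them passed by limma (2 had an unadjusted p under 0.05 besides foxp2). With a floor at a signal of 1, foxa3 and foxi1 passed towards hMYC-ER (adjusted p 0.00992 and 0.0437). They include the endodermal pioneer factor genes foxa1, foxa2 and foxa3, of which foxa1 was at the floor on all 9 arrays and foxa2 differed by -0.76 (adjusted p 0.127, and 0.0438 without array 1). The mesoderm and vessel genes foxc1a and foxc1b differed by -0.52 and -0.21, the neural crest and early embryonic genes foxd2, foxd3 and foxd5 by 0.17, 0.15 and -0.42, and the Nodal pathway factor gene foxh1 by 0.13. The gene foxd5 stayed above the floor on every array, at 5.68 to 6.29 in hMYC-ER and 6.13 to 6.79 in hlk (adjusted p 0.144). The brain and retina genes foxb1a, foxb1b, foxg1b and foxn4, the ear and ionocyte gene foxi1 and the gut mesenchyme gene foxl1 had group means of 4.00 to 6.09. Counting both families, 31 members were dim without passing, with differences from -2.23 to 0.92, and 5 of those were above the floor on all arrays.

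Endothelial and endodermal markers, from the known surroundings of SoxF, FoxC and FoxA genes, were followed in the same way. Of 10 endothelial genes 0 passed by limma (2 at an unadjusted p under 0.05, and flt4 passed without array 7, at -0.71), kdrl was at 4.20 and 4.00, and summed signals were 286 to 352 in hMYC-ER and 289 to 454 in hlk. The 26 epithelial and endodermal genes had a median difference of -0.75, with 2 of 26 above 0 and 6 at an unadjusted p under 0.05. After adjustment 1 was higher in hlk, fgb (4.19 and 5.51), a call lost without any 1 of 7 arrays, with summed signals of 925 to 1208 and 1625 to 4500. Of 17 cilia genes, the targets of other forkhead factors, 4 were higher in hlk, among them rfx2 (7.02 and 9.12), dnaaf1 (4.33 and 6.26) and ift172 (7.27 and 8.57). Without array 7 the cilia genes tekt1 (2.83) and ift57 (2.18) passed in the other direction. Myeloid genes gave 2 of 13 higher in hMYC-ER, nccrp1 (2.50) and srgn (2.40), while the neutrophil gene mpx lay at 4.22 and 4.58, and without array 7 cebpa passed towards hlk (-3.33). Muscle genes gave 1 of 23 higher in hlk, mylz3 (-1.22), and without array 7 actc1b passed towards hMYC-ER (0.79). Of 16 erythroid and 5 thrombocyte genes, 0 passed by limma, with 1 and 0 at an unadjusted p under 0.05, and without array 7 the globin gene hbaa1 passed towards hMYC-ER (2.32). Shares passing were 23.5% of the cilia, 15.4% of the myeloid, 4.35% of the muscle and 3.85% of the epithelial and endodermal genes. Over all genes the share was 22.0%, so that the cilia count is no result about that list. The genes named for a call gained or lost without array 7 were chosen after their values were seen. The part of these cell types in the Sox and forkhead values was not tested.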

How the data were processed

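RNA from sorted cells was hybridised to Affymetrix zebrafish arrays, per the labels' protocols. The authors deposited 1 linear intensity per probe set and array, already scaled to a trimmed mean of 500.1 to 500.2. Its summarisation algorithm: not given in the sources used here. Of 15617 probe sets, 115 controls were left out of the tests. Symbols came from the platform annotation (10795 probe sets with 1 symbol, 135 with several, 4572 with none), updated through Entrez identifiers with the GRCz12tu gene table, which matched 10711.

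Because array medians differed by 0.31 on the log2 scale, all probe sets were quantile normalized, values below a signal of 16 were raised to it, and log2 was taken. limma 3.58.1 in R 4.3.3 (lmFit, eBayes) compared 6 with 3 arrays without covariates over 8793 genes, with Benjamini-Hochberg adjustment. Every adjusted p of a gene is limma's. The fit was tested on simulated data, in which differences were added only to probe sets with means well above the floor. It says nothing of recovery for genes with means near the floor. Exact permutations used Python 3.11.15, and figures matplotlib 3.10.9.

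The members and lists were chosen with earlier results of these data known. Named were all members that passed, those at 8 or more, paralogues, the first 4 changed genes of each partner list and 3 of each marker list by p, and 7 partner genes, of which tcf7 and il7r were not analysed here. Outside this rule, the marker genes trac, tox, rag2, cd28, tyr, dct, elavl4, olig2, gfap, kdrl and mpx were named with their values known. So were mitfb, mbpa, tfap2a and ednrba. The paralogue tests, the correlations and the list counts without array 7 were added after seeing the data. Alternatives were no quantile normalization, median centring, floors of 1 and 64, omission of the dimmest 33% of genes, a trend with robust prior, array weights, each array left out, a 2-fold minimum, other probe set choices and an exact permutation test. No sequence or coordinate is given.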

Additional observations from a re-analysis of the deposited data

Results flagged for a closer look

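In the group of 6 hMYC-ER arrays, 1 array lay far from the others for 6 of the 37 members tested in this way. The rate of about 1 in 20 that chance gives does not hold for values at a floor. In foxg1b, foxp2, sox21a and sox21b the other 5 arrays were all at 4, so that any value above it stands apart. Of the 6, foxo3a was at the floor of 4 on array 1, with the other arrays at 5.93 to 6.75. In the other 5 genes a single array lay above the rest, which were at the floor or near it. These were foxa3 (5.12 on array 1), foxg1b (4.37 on array 1), foxp2 (5.00 on array 2), sox21a (5.25 on array 5) and sox21b (4.20 on array 2).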

How the results depend on the processing

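No paired analysis was possible because the labels pair no hMYC-ER sample with an hlk sample. Of the 7 members that passed, sox19a, sox11a, foxp1a, foxk1 and foxj3 kept call and direction in all 18 alternative limma fits, sox2 in 17 (not with a floor of 64) and foxk2b in 8. The 2-fold minimum also dropped foxj3 and foxk2b, and 0 of the 7 changed direction in these fits. Leaving out 1 array gave 4 to 5 members higher in hMYC-ER (Sox 2 to 3, forkhead 2 to 3) and 2 to 5 higher in hlk (Sox 1 to 3, forkhead 1 to 2), and for all genes 766 to 1018 and 827 to 983. Without array 7 those higher in hlk were 5 (Sox 3, forkhead 2). Forkhead genes higher in hlk were 2 as deposited, with median centring, a floor of 1, the trend with robust prior or array weights, foxp2 being the second, and 0 with the 2-fold minimum, which left 1 member and 511 genes higher in hlk. A floor of 64 left 1 Sox gene higher in hMYC-ER. With a floor of 1 there were 6 members higher in hMYC-ER, with foxa3 and foxi1 added and foxk2b lost. The exact permutation test called 0 genes and 0 members in either direction, since its smallest adjusted p was 0.0581. At an unadjusted p under 0.05 it had 10 members and 2795 genes, and limma 11 and 3032. Median centring moved the median of all genes to -0.18. With the dimmest 33% of genes left out, by their mean over all arrays, 15 members remained. Of these 6 passed towards hMYC-ER, with sox4a added, and 2 towards hlk, where 33.1% of the genes kept passed. These shares were not tested as such, and the filter keeps genes that are bright in only 1 model. Signals near the floor limit what can be seen of the 31 dim members.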
